A study of Homo sapiens with 6 samples.

Results

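ID1, ID2, ID3, VCAM1, IL13RA2, LTBP1, FSCN1, MAN1A1, KYNU and CXCR4 are genes known from the spread of breast cancer to the lung and from the ID family of transcription regulators. They were chosen by symbol: every probe set that the platform annotation pairs with one of these symbols alone was taken, and the brightest by the mean of the arrays would have been kept where a gene had more. Each of the 10 genes had 1 such probe set, and they are 10 of the 18377 genes read. The values come from MDA-MB231, an established human breast cancer cell line grown in DMEM/F12 medium with calf serum. One group of 3 cultures was transfected with the empty pTargeT mammalian expression vector, and the other group of 3 cultures with pTargeT carrying GHSROS, a long noncoding RNA transcribed across the ghrelin receptor gene on its other strand. All 6 cultures therefore carry the vector, no untransfected culture was measured, and the sources used here do not say whether the transfected cells were a pool or a clone. Levels below are deposited log2 values, so a difference of 1 is a doubling, and a log2 fold change is the mean with GHSROS minus the mean with the empty vector.

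Breast cancer cells that colonise the lung must leave the vessels there, attach to lung stroma and resume growth, and gene signatures of this step were drawn from sublines of MDA-MB231. ID proteins are helix-loop-helix proteins without a DNA-binding region: they pair with basic helix-loop-helix factors such as the E proteins and keep them off DNA, and bone morphogenetic protein (BMP) signals through SMAD proteins are known to induce their genes. VCAM1 and CXCR4 act at the cell surface in adhesion and chemokine sensing, LTBP1 and IL13RA2 handle TGF-beta and interleukin 13, FSCN1 bundles actin in protrusions, and MAN1A1 and KYNU are enzymes of glycan trimming and of tryptophan breakdown.

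Upstream sequences were found in RefSeq (GRCh38.p14) for 8 of the 10 genes, all but IL13RA2 and FSCN1. The 250 bases before the start are shown for the 3 ID genes, because ID1 and ID2 were highest on the same arrays and ID3 was not, and for LTBP1, the member that varied most between arrays. Capitals mark the motifs CCAAT, known as a binding site of NF-Y, and TGACGTCA, the site of CREB and ATF factors, on either strand. Each sequence runs from 5′ to 3′ on its gene's strand. ID1 lies at chr20:31605039-31605288 (+ strand), ID2 at chr2:8681806-8682055 (+ strand), ID3 at chr1:23559502-23559751 (- strand) and LTBP1, at the first of its 3 listed starts, at chr2:32946703-32946952 (+ strand).
ID1: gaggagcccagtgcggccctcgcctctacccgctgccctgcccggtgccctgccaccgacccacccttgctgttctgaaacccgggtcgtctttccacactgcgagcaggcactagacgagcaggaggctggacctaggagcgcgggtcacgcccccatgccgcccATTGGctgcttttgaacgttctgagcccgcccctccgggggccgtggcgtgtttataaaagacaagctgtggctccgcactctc
ID2: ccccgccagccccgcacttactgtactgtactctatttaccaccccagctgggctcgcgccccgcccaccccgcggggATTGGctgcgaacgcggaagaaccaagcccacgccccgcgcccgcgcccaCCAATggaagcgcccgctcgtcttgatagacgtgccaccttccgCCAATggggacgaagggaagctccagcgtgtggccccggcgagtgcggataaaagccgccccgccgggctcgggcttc
ID3: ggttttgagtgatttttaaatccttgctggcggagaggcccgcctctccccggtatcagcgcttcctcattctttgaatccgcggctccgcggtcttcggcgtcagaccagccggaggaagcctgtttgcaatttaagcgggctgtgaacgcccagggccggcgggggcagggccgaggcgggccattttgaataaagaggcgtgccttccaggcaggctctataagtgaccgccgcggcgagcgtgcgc
LTBP1: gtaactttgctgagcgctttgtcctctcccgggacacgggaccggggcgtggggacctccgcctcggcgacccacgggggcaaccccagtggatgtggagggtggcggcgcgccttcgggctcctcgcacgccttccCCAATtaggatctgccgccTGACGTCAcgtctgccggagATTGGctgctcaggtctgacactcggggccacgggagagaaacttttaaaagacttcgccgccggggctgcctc
CCAAT was found 1 time upstream of ID1, 3 times upstream of ID2, 2 times upstream of LTBP1 and 0 times upstream of ID3, and it occurs in 32.0% of the 35116 windows of the same length in the table. TGACGTCA was found 1 time upstream of LTBP1, 94 bases before the start, against 1.65% of all windows. Upstream of the other listed starts of LTBP1, CCAAT and TGACGTCA were each found 0 times. Which start the cultures used was not tested. GGCGCC, a motif of BMP-activated SMAD proteins, occurs in 16.4% of windows and was found in none of these 4. GGGCGG, the GC box, occurs in 42.6% and was found 2 times each for ID1 and ID2. Of the members not shown, CCAAT was found 1 time each for MAN1A1 and KYNU and 0 times for VCAM1. For CXCR4 it was found 1 time over 3 listed starts. These matches describe the letters of this window only. Their relation to the levels on the arrays was not tested.

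None of the 10 genes passed the test between the groups. In limma with Benjamini-Hochberg adjustment over all genes 0 of 10 had an adjusted p under 0.05, as did 0% of all genes, and each of the 10 had an adjusted p of 1. The unadjusted p was under 0.05 for 0 of 10, and for 1.77% of all genes. The 3 GHSROS arrays overlapped the 3 empty-vector arrays in all 10 genes, and the groups were apart in 5.51% of all genes. The estimate was above 0 for 6 genes and below 0 for 4, where 50.9% of all genes lay above 0 and 49.1% below, with a median log2 fold change of 0.05 beside 0.00 over all genes. The exact two-sided permutation p over the arrays ran from 0.2 for IL13RA2 to 1 for ID3 and KYNU, where 3 arrays against 3 cannot go below 0.1. For 9 of the 10 genes the 95% interval lay within a doubling and a halving, the exception being LTBP1. Among the 9, ID2, ID3, VCAM1, IL13RA2 and CXCR4 were as dim as the genes of other tissues described below. Differences of such dim genes may be compressed, so their intervals bound the measured signal only.

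**Figure D1:**
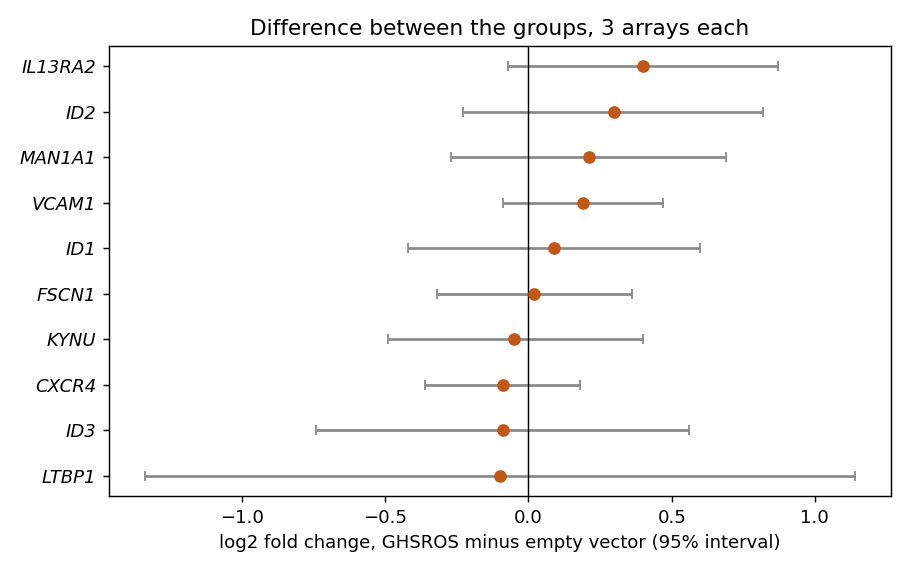
Log2 fold change (horizontal axis, GHSROS minus empty vector) of the 10 genes, with limma's 95% interval as bars, from 3 arrays per group. Every interval spans 0; that of IL13RA2 runs from -0.07 to 0.87, and that of LTBP1 is the widest, from -1.34 to 1.14.

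What the genes did show was a difference between cultures that crossed the groups. Empty-vector array 1 and GHSROS array 3 were the highest 2 of the 6 arrays for 7 of the 10 genes, namely ID1, ID2, LTBP1, FSCN1, MAN1A1, KYNU and CXCR4, an order seen in 18.9% of all genes. They were the lowest 2 for 0 of the 10 genes, against 20.3% of all genes. The margin was thin for CXCR4, at 6.25 and 6.16 against 6.13 on GHSROS array 2. It was also thin for KYNU, at 11.66 and 11.67 against 11.58 on empty-vector array 2. ID2 and CXCR4 were as dim as the genes of other tissues described below. Empty-vector array 1 and GHSROS array 3 stand apart in the whole series. A list of 25 mitosis genes averaged 10.06 and 10.09 on them and between 10.88 and 11.13 on the other 4. A list of 18 genes of the ATF4 amino acid stress response averaged 9.77 and 9.83 there and between 8.85 and 9.33 elsewhere. Both lists, like the 10 genes, were chosen with earlier results of these data known. They describe the split and are not separate evidence of it. The part of either list in the levels of the 10 genes was not tested. The range over the 6 arrays was wide for most of the 10, with a median of 0.87 against 0.37 over all genes. With both of those arrays left out it shrank from 0.87 to 0.38 for ID1, from 0.95 to 0.27 for ID2, from 1.99 to 0.98 for LTBP1, from 0.38 to 0.09 for FSCN1, from 0.87 to 0.56 for MAN1A1, from 0.57 to 0.48 for KYNU and from 0.40 to 0.27 for CXCR4, as it must where the highest 2 are removed, while VCAM1 went from 0.43 to 0.28 and ID3 and IL13RA2 kept the whole of theirs.

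**Figure D2:**
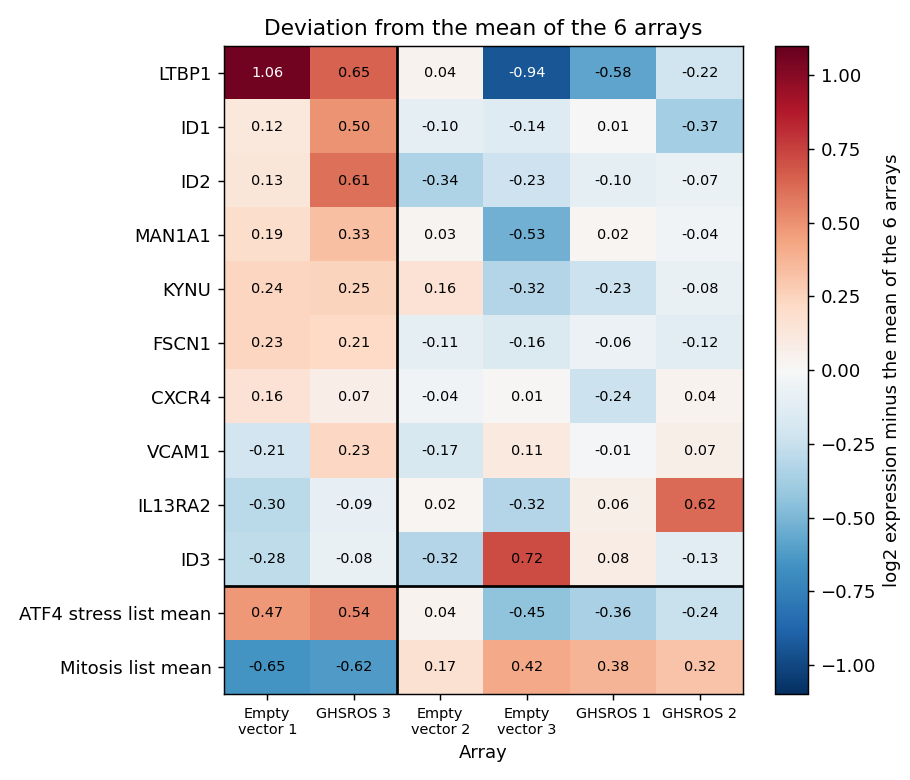
Each gene's log2 level minus its mean over the 6 arrays (colour and printed number; columns are arrays, those that stand apart placed first), above the means of the ATF4 stress and mitosis lists on the same scale. LTBP1 stands at 1.06 and 0.65 on those arrays and at -0.94 on empty-vector array 3, where ID3 is at its highest, 0.72 above its mean.

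MDA-MB231 is of mesenchymal, triple-negative character. Its high markers were bright on the arrays, while the genes listed here as low markers were mixed. Of 11 measured genes known to be high in the line, all lay at a mean of 10.10 or more, with VIM between 12.99 and 13.37. ESR1, PGR and CDH1, the oestrogen receptor, the progesterone receptor and E-cadherin, lay between 4.41 and 5.35 on every array.  Of 24 measured genes of other tissues, which serve as a rough guide to the signal of genes that are not expressed, the mean level ran from 3.26 (TSHB) to 7.59 (HBZ), with a median of 5.25. Of the 14 genes listed as low markers 7 had means above that span, so these 7 did not serve as low markers here. Among them were the keratins KRT8, KRT18 and KRT19 at 11.56 to 12.16. The claudin genes CLDN7 and CLDN4 had means of 10.42 and 8.52, and ERBB2, the HER2 gene, 8.89. ID1, LTBP1, FSCN1, MAN1A1 and KYNU had means above the span of genes of other tissues. The other 5, ID2, ID3, VCAM1, IL13RA2 and CXCR4, lay within it, so whether they are expressed cannot be told from these values, since probe sets differ in how brightly they respond. Differences of such dim genes may also be compressed. Both limits hold as well for genes of the related lists below whose means lie within this span.

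Among the ID genes, ID1 and ID2 followed the arrays that stood apart and ID3 did not. ID1 read 9.24, 9.02 and 8.98 on empty-vector arrays 1 to 3 and 9.13, 8.75 and 9.62 on GHSROS arrays 1 to 3. GHSROS array 3 was the highest and GHSROS array 2 the lowest, so the GHSROS group enclosed the empty-vector group. The means were 9.08 ± 0.14 (SD, n = 3) and 9.17 ± 0.43, with a log2 fold change of 0.09 (SE 0.21, 95% interval -0.42 to 0.60). Without GHSROS array 3 the estimate turned to -0.14.

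ID2 read 6.28, 5.81 and 5.92 with the empty vector and 6.05, 6.08 and 6.76 with GHSROS. GHSROS array 3 again stood highest, and the other GHSROS arrays lay between the empty-vector arrays. The log2 fold change of 0.30 (SE 0.22, 95% interval -0.23 to 0.82) dropped to 0.06 without GHSROS array 3, and it was 0.20 when empty-vector array 2 was left out.

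ID3 had another pattern. It read 6.84, 6.80 and 7.84 with the empty vector and 7.20, 6.99 and 7.04 with GHSROS, so empty-vector array 3 alone set its range of 1.04. The groups averaged 7.16 ± 0.59 (SD, n = 3) and 7.08 ± 0.11, a log2 fold change of -0.09 (SE 0.27, 95% interval -0.74 to 0.56). Without empty-vector array 3 all 3 GHSROS arrays lay above the remaining empty-vector arrays and the estimate was 0.26, with an unadjusted p of 0.0516 and an adjusted p of 0.999 in limma. The genes whose profile over the 6 arrays was nearest to that of ID3 were MARCHF1, POLR1G and GEMIN8P4, at root mean square distances of 0.113, 0.118 and 0.126 after each gene's mean was subtracted. ID4, the remaining family member, lay between 5.74 and 6.06 on every array, within the span of genes of other tissues, with its highest 2 values, 6.06 and 6.04, on the arrays that stood apart.

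The partners of the ID proteins differed little. Of 8 measured basic helix-loop-helix and related genes 5 were higher and 3 lower with GHSROS, 0 passed in limma, and the median log2 fold change was 0.02. TCF4, which encodes an E protein, had the smallest p of them. It read 7.60, 7.73 and 7.63 with the empty vector and 7.37, 7.34 and 7.37 with GHSROS, with the groups apart. Its log2 fold change of -0.29 (SE 0.08) had an unadjusted p of 0.00858 and an adjusted p of 1 in limma. The mean of TCF4, 7.51, lay within the span of genes of other tissues. The E protein genes TCF3 and TCF12 were at 0.03 (SE 0.12) and 0.05 (SE 0.10), and HES1, a repressor driven by Notch, at 0.21 (SE 0.19).

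The BMP pathway, upstream of the ID genes, had 24 measured genes, of which 14 were higher, 10 lower and 0 past the test, at a median log2 fold change of 0.04. Noggin, a secreted BMP antagonist encoded by NOG, had the smallest p: 10.06, 10.33 and 10.15 with the empty vector and 9.78, 10.17 and 9.63 with GHSROS. The groups overlapped, at a log2 fold change of -0.32 (SE 0.15) and an unadjusted p of 0.0778 in limma. The next was ACVRL1, a type I receptor known from endothelium, at 0.22 (SE 0.17). Empty-vector array 1 and GHSROS array 3 were the highest 2 arrays for 6 of the 24 and the lowest 2 for 4, where 18.9% and 20.3% of all genes had these orders. The ligand gene BMP4 had its highest 2 values, 9.49 and 9.15, on them, and read 8.70 to 9.04 elsewhere. SMAD6 and SMAD7, inhibitory SMAD genes that are themselves known targets of the pathway, were highest on the same 2 arrays, SMAD6 at 7.84 and 7.97 against 7.39 to 7.56 elsewhere. SMAD7 read 6.43 and 6.21 on them against 5.92 to 6.12, with a mean within the span of genes of other tissues. BMPR2, the type II receptor, followed at 11.26 and 11.14 against 10.40 to 10.93. SMAD5, SMAD9, BMP6 and FST were lowest on them, SMAD5 at 10.58 and 10.46 against 10.72 to 11.00. SMAD1 and SMAD5, which carry the signal, differed between the groups by -0.05 (SE 0.09) and 0.09 (SE 0.16) in log2. How the levels of the pathway genes relate to those of the ID genes was not tested.

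**Figure D3:**
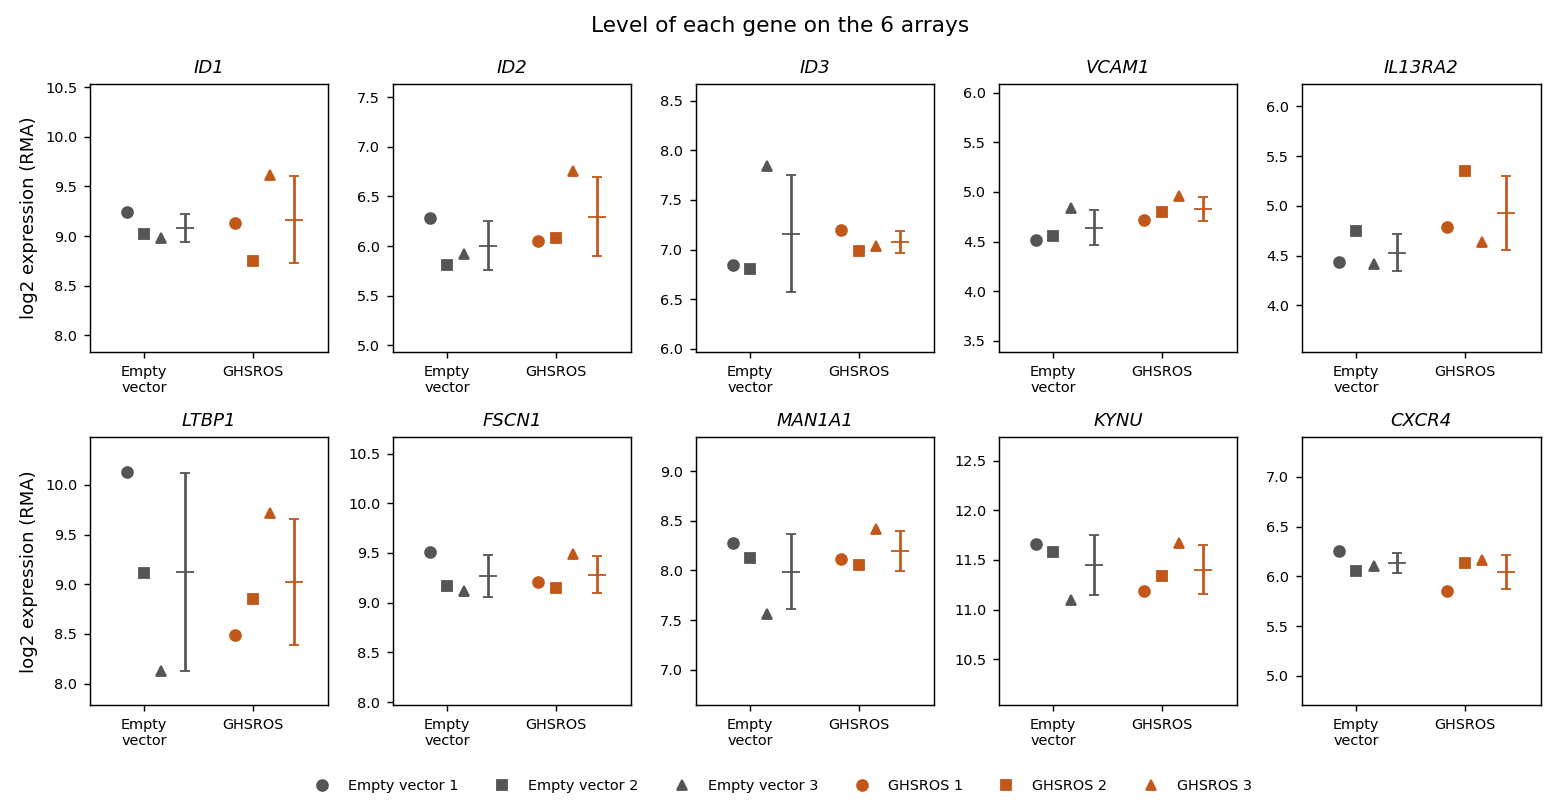
Log2 level (vertical axes, equal spans) of the 10 genes on the 6 arrays, with grey symbols for empty vector, orange for GHSROS, and the symbol shape giving the replicate number; the bars beside each group are its mean and SD (n = 3). The groups overlap in every panel, with the widest spread for LTBP1, from 8.13 to 10.13.

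VCAM1, an adhesion molecule that binds integrin alpha 4 beta 1 on leukocytes, was dim on every array. It read 4.52, 4.56 and 4.84 with the empty vector and 4.72, 4.80 and 4.96 with GHSROS. The GHSROS arrays were higher on the whole, yet empty-vector array 3 lay above GHSROS arrays 1 and 2. The log2 fold change was 0.19 (SE 0.12, 95% interval -0.09 to 0.47), and without empty-vector array 3 it was 0.29 with an unadjusted p of 0.0366 and an adjusted p of 0.999 in limma. It was 0.13 without empty-vector array 1 or GHSROS array 3, and 0.07 without both.

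Of 12 measured genes of VCAM1 ligands, relatives and regulators 6 were higher and 6 lower, with 0 past the test and a median of 0.01. ICAM2, an adhesion molecule of the same superfamily, read 9.38, 9.56 and 9.79 with the empty vector and 9.27, 9.24 and 9.06 with GHSROS, with the groups apart. Its log2 fold change of -0.39 (SE 0.13) had an unadjusted p of 0.0177 and an adjusted p of 1 in limma. RDX, which encodes the linker radixin, had the next smallest p at -0.08 (SE 0.10). ICAM1, which like VCAM1 is induced through NF-kB, stood at 11.75 and 11.76 on the arrays that stood apart and ran from 10.57 to 11.33 on the others, an order that VCAM1 did not share. Those arrays were the highest 2 for 3 of the 12 and the lowest 2 for 1, against 18.9% and 20.3% of all genes. The integrin chain ITGA4 was at 4.43 to 4.63, in the span of genes of other tissues, and its partner ITGB1 at 12.04 to 12.22.

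CXCR4, the receptor of the chemokine CXCL12, read 6.25, 6.05 and 6.10 with the empty vector and 5.85, 6.13 and 6.16 with GHSROS. GHSROS array 1 was the lowest and the other 5 arrays lay between 6.05 and 6.25, so the groups overlapped. The log2 fold change of -0.09 (SE 0.11, 95% interval -0.36 to 0.18) became 0.01 without GHSROS array 1. In its axis 13 genes were measured, 8 higher, 5 lower and 0 past the test, with a median of 0.03. DPP4, a protease that inactivates CXCL12, and ACKR3, the other receptor of that ligand, had the smallest p, both with a log2 fold change of 0.18 (SE 0.10) and groups that overlapped. Both were dim, DPP4 at 4.30 to 4.67 and ACKR3 at 3.79 to 4.16, and CXCL12 itself was at 4.47 to 4.86. ARRB1, a beta-arrestin that uncouples the activated receptor, ranged from 10.11 on GHSROS array 1 to 11.41 on empty-vector array 1. The arrays that stood apart, highest for CXCR4, were the highest 2 for 2 of the 13, against 18.9% of all genes. They were the lowest 2 for 5 of the 13, against 20.3%.

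IL13RA2, a high-affinity receptor of interleukin 13 long described as a decoy, had the smallest p of the 10 genes. It read 4.43, 4.75 and 4.41 with the empty vector and 4.79, 5.35 and 4.64 with GHSROS. GHSROS array 2 stood well above the rest, GHSROS array 1 just above, and GHSROS array 3 fell below empty-vector array 2. The means were 4.53 ± 0.19 (SD, n = 3) and 4.93 ± 0.38, a log2 fold change of 0.40 (SE 0.20, 95% interval -0.07 to 0.87) or 1.32-fold, with an unadjusted p of 0.0865 in limma. Without GHSROS array 2 the estimate was 0.19. It was 0.54 with an unadjusted p of 0.03 in limma without GHSROS array 3, and 0.49 with 0.0481 without both arrays that stood apart, at an adjusted p of 1 in each case. The whole range of the gene lay at or below the median of genes of other tissues, 5.25, on all arrays but GHSROS array 2.

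The other chains of the receptor were bright and crossed the groups. Of 10 measured genes of the pathway 7 were higher and 3 lower, 0 passed and the median was 0.04. IL13RA1, the signalling alpha chain, read 10.86, 10.56 and 10.30 with the empty vector and 10.46, 10.54 and 10.98 with GHSROS. Its highest 2 values were on the arrays that stood apart, on which IL13RA2 was not high. IL4R, its partner chain, JAK1 and STAT6, which relay the signal, had the same highest 2 arrays. In the pathway 4 of 10 genes had this order, against 18.9% of all genes. Those arrays were the lowest 2 for 0 of them, against 20.3%. The smallest p were those of IL2RG, a chain of the IL-4 receptor of lymphocytes, at 0.14 (SE 0.09), and of CHI3L1, a secreted chitinase-like ligand of IL13RA2, at 0.12 (SE 0.11), both within the span of genes of other tissues.

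**Figure D4:**
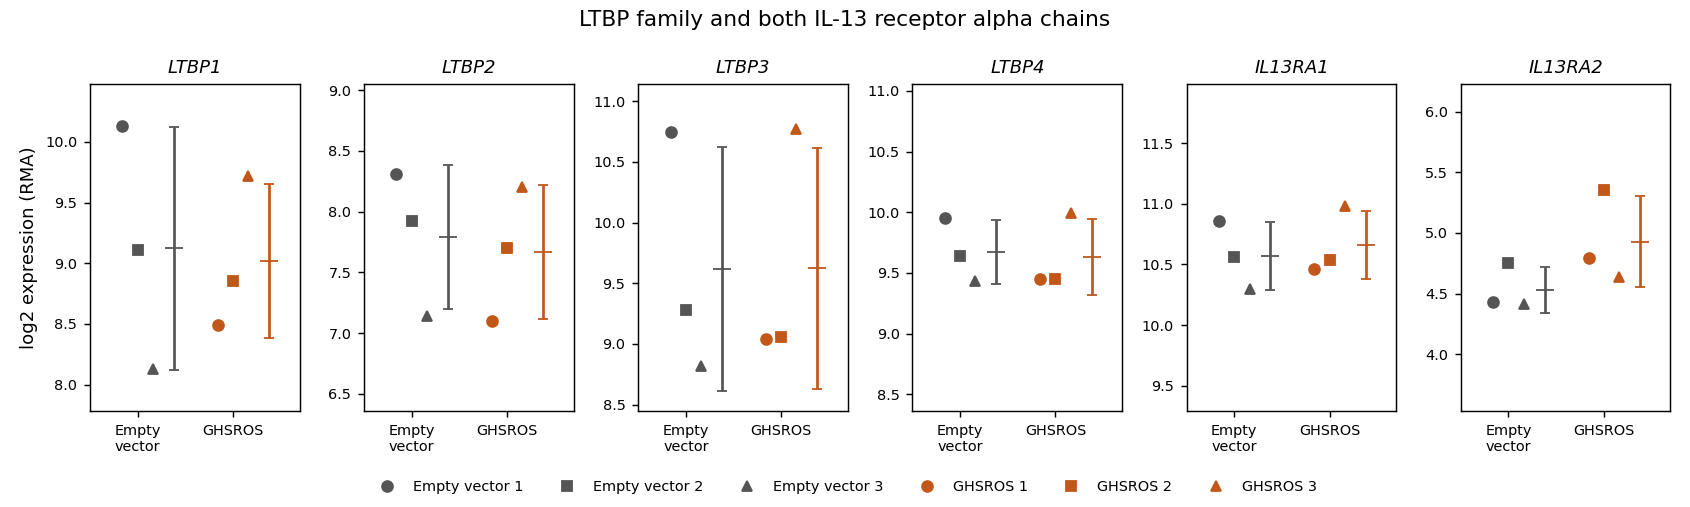
Log2 level (vertical axes, equal spans) of the 4 LTBP genes and of both interleukin 13 receptor alpha chains on the 6 arrays, grey for empty vector and orange for GHSROS, with mean and SD (n = 3) beside each group. Empty-vector array 1 (circle) and GHSROS array 3 (triangle) are the highest 2 in every panel but that of IL13RA2, where GHSROS array 2 is highest at 5.35.

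LTBP1 holds latent TGF-beta in the matrix until it is activated, and it varied more between cultures than the other 9 genes. It read 10.13, 9.11 and 8.13 with the empty vector and 8.49, 8.85 and 9.72 with GHSROS. Its range of 1.99, a 3.98-fold span, was at the 99.5th percentile of all genes, and both ends of it were empty-vector arrays. The groups averaged 9.12 ± 1.00 (SD, n = 3) and 9.02 ± 0.63, a log2 fold change of -0.10 (SE 0.52, 95% interval -1.34 to 1.14), which includes both a doubling and a halving. The estimate was 0.40 without empty-vector array 1 and 0.16 without GHSROS array 1. It was -0.60 when empty-vector array 3 was left out.

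The genes with the profile nearest to that of LTBP1 were ORAI3, a calcium channel subunit, OTUD1, a deubiquitinase, and CALCOCO1, an autophagy receptor, at root mean square distances of 0.111, 0.120 and 0.127 over the 6 arrays. ORAI3 read 10.29, 9.36 and 8.23 with the empty vector and 8.52, 8.83 and 10.01 with GHSROS. The mitosis list was lowest and the ATF4 list highest on the 2 arrays where LTBP1 was highest, and on empty-vector array 3, where LTBP1 was lowest, they stood at 11.13 and 8.85, the highest and the lowest of the 6.

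Of 18 measured genes of the LTBP family, fibrillins and TGF-beta signalling 11 were higher and 7 lower with GHSROS, with 0 past the test and a median log2 fold change of 0.02. For 12 of the 18 the highest 2 arrays were empty-vector array 1 and GHSROS array 3, against 18.9% of all genes. LTBP2, LTBP3 and LTBP4 were among them, and LTBP1 itself had the same order, with LTBP3 at 10.75 and 10.77 on those arrays and 8.82 to 9.28 on the rest, and LTBP2 at 8.31 and 8.20 against 7.10 to 7.92. FN1, the fibronectin gene, and FBN1, the fibrillin that anchors LTBP1, shared the order, at 12.37 and 12.31 and at 9.16 and 9.05. THBS1, an activator of latent TGF-beta, ran the other way, at 11.94 and 11.78 against 12.29 to 12.52. The smallest p between the groups were those of the ligand gene TGFB2 (log2 fold change 0.18, SE 0.11) and of FBN2 (0.10, SE 0.08). TGFB1 was at -0.31 (SE 0.29), and TGFBR2, the type II receptor, at 0.18 (SE 0.22).

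FSCN1, the gene of fascin, which bundles actin in filopodia, had the smallest range of the 10. It read 9.51, 9.17 and 9.12 with the empty vector and 9.21, 9.15 and 9.49 with GHSROS. The arrays that stood apart formed the upper pair and the other 4 lay within 0.09 of each other. The log2 fold change was 0.02 (SE 0.14, 95% interval -0.32 to 0.36) and turned to -0.09 when GHSROS array 3 was left out, to -0.05 without empty-vector array 3 and to -0.03 without empty-vector array 2. Of 18 measured genes of filopodia and actin bundling 8 were higher and 10 lower, with 0 past the test and a median of -0.02. VASP, which speeds actin growth at filopodial tips, read 9.50, 9.47 and 9.65 with the empty vector and 9.42, 9.32 and 9.37 with GHSROS, with the groups apart at a log2 fold change of -0.17 (SE 0.09) and an unadjusted p of 0.0943 in limma. EVL of the same family was at 0.19 (SE 0.10). For 8 of the 18 the arrays that stood apart were the lowest 2, against 20.3% of all genes, with the formin DIAPH3, which is also needed in cell division, at 9.65 and 9.62 against 10.73 to 10.96.

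MAN1A1 trims mannose from N-glycans in the Golgi. It read 8.28, 8.12 and 7.56 with the empty vector and 8.11, 8.05 and 8.42 with GHSROS. Empty-vector array 3 stood low and GHSROS array 3 highest, and the remaining arrays overlapped. The log2 fold change of 0.21 (SE 0.20, 95% interval -0.27 to 0.69) fell to 0.00 without empty-vector array 3. Of 14 measured genes of the pathway 7 were higher and 7 lower, with 0 past the test and a median of 0.00. MGAT4A, a branching N-acetylglucosaminyltransferase, read 5.39, 5.24 and 5.10 with the empty vector and 5.72, 5.42 and 6.40 with GHSROS, the groups barely apart. Its log2 fold change was 0.60 (SE 0.24), with an unadjusted p of 0.0417 and an adjusted p of 1 in limma. The mean of MGAT4A, 5.54, lay within the span of genes of other tissues. The related mannosidase gene MAN1C1 was at 0.17 (SE 0.14), and MAN1A2, the closest relative, at 0.10 (SE 0.11). MGAT4B, another gene of the branching step, had its highest 2 values, 11.06 and 11.16, on the arrays that stood apart, against 9.91 to 10.40 on the others. Those arrays were the highest 2 for 5 of the 14 and the lowest 2 for 2, against 18.9% and 20.3% of all genes.

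KYNU, the kynureninase of tryptophan breakdown, read 11.66, 11.58 and 11.10 with the empty vector and 11.19, 11.34 and 11.67 with GHSROS. Empty-vector array 1 and GHSROS array 3 were level at the top, with empty-vector array 2 close below. The means were 11.45 ± 0.30 (SD, n = 3) and 11.40 ± 0.25, a log2 fold change of -0.05 (SE 0.19, 95% interval -0.49 to 0.40), which was 0.06 without empty-vector array 1 or GHSROS array 1 and 0.02 without empty-vector array 2. Of 15 measured genes of the kynurenine pathway 7 were higher and 8 lower, with 0 past the test and a median of 0.00. The enzymes that begin the pathway were in the span of genes of other tissues, IDO1 at 4.09 to 4.39 and TDO2 at 3.50 to 3.78, as was KMO, at 3.42 to 3.58. HAAO, the dioxygenase downstream of KYNU, was at 0.19 (SE 0.10) with overlapping groups and an unadjusted p of 0.0866 in limma. IDO1 was at -0.16 (SE 0.09) with an unadjusted p of 0.129 in limma. Its groups were barely apart, with empty-vector array 3 and GHSROS array 2 both at 4.21 after rounding. AHR, the receptor that kynurenine can activate, and WARS1, the tryptophanyl-tRNA synthetase, shared the upper pair of arrays with KYNU, WARS1 at 11.69 and 11.62 against 10.72 to 11.08. The arrays that stood apart were the highest 2 for 4 of the 15, against 18.9% of all genes. They were the lowest 2 for 0 of the 15, against 20.3%.

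Among 13 other measured genes of the lung metastasis signature 5 were higher and 8 lower, with 0 past the test and a median log2 fold change of -0.05. ADIRF, a small gene known from adipocytes, read 7.42, 7.25 and 7.42 with the empty vector and 6.94, 6.75 and 7.30 with GHSROS. The groups overlapped on GHSROS array 3. The log2 fold change of ADIRF, -0.36 (SE 0.15), had an unadjusted p of 0.0452 and an adjusted p of 1 in limma. Its mean of 7.18 lay within the span of genes of other tissues. PTGS2, the inducible cyclooxygenase, had the smallest p of these genes, an unadjusted 0.0105 in limma, at a log2 fold change of 0.84 (SE 0.24). It read 8.42, 8.21 and 7.82 with the empty vector and 9.21, 8.49 and 9.24 with GHSROS. The groups were barely apart, and PTGS2 did not pass after adjustment. The arrays that stood apart were the highest 2 for 2 of the 13, PLAAT4 and ANGPTL4, and the lowest 2 for 2, among them the matrix gene TNC at 9.08 and 8.92 against 10.42 to 10.94. PLAAT4, a retinoid-responsive gene described as a suppressor of lung metastasis, was at 9.04 and 9.15 on them and 6.87 to 7.10 on the others.

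Several of the 10 genes are also expressed by other cells, VCAM1 by activated endothelium and CXCR4 by leukocytes. The arrays read whole cultures, but every culture was of the MDA-MB231 line, with no other cell type named in the labels. The markers of other cell types below are therefore given as signal in cultures of that line. Of the markers of leukocytes PTPRC lay at a mean of 3.61, MS4A1 at 3.83 and CD3E at 5.12, in the span of genes of other tissues, while CD68, a lysosomal protein gene, was at 12.36 and IL7R, the interleukin 7 receptor gene, at 9.78. The myeloid list averaged 6.21 and 6.09 on the arrays that stood apart and 5.77 to 5.91 on the others, and 4 of its 10 genes had those arrays as their highest 2, among them CD14 at 8.98 and 8.09 against 6.56 to 6.96. The lymphoid list averaged 5.86 to 6.06, with 1 of 9 genes highest there (NKG7) and 1 lowest (IL7R). Of 10 endothelial genes 5 were higher and 5 lower with GHSROS and 0 passed, with VWF at 5.29, PECAM1 at 6.10, KDR at 7.98, EGFL7 at 8.36 and ROBO4 at 9.91. The endothelial list averaged 6.69 and 6.79 on the arrays that stood apart and 6.43 to 6.51 on the others, and 2 of its genes had those arrays as their highest 2, ROBO4 and KDR, the latter at 8.81 and 9.10 against 7.20 to 7.77. The fibroblast list averaged 5.14 to 5.32 on the 6 arrays, with LUM at 3.48 and DCN at 3.64. How the levels of these markers relate to those of the 10 genes was not tested.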

How the data were processed

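RNA of 6 cultures was read on 1-colour Affymetrix Human Gene 1.0 arrays, 3 per group. The submitters' processing notes name RMA as what the authors used for the deposited log2 values; version and steps are not stated there, and log2 was inferred from RMA and the range of the values. Between-array normalization in RMA, where run, removes a shift of most genes together. Precision is limited by the number of arrays.

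Groups and replicate numbers came from the sample titles. Probe sets with 1 gene symbol in the platform annotation (19310 of 28869) were kept, the brightest per gene, giving 18377 genes with no filter; 1752 had several symbols and 7807 none. Entrez identifiers of 19279 matched RefSeq and changed 0 symbols. The groups were compared in R 4.3.3 with limma 3.58.1, using a linear model by lmFit with a group term alone, then eBayes. Tests were two-sided, with Benjamini-Hochberg over all genes and a threshold of 0.05. The limma code was checked by adding known shifts to randomly drawn genes of these arrays. How well small shifts were found is not reported here. Single genes were also tested by exact permutation. The p-values treat the cultures as independent. The 10 genes and all gene lists were chosen with earlier results of these data known. All 10 genes were named, with the 2 of smallest p in each related list, partners needed to place them, and, for those of the 10 that ranged over at least 1 log2 unit, the 3 genes with the nearest profiles. Other genes were singled out after their values were seen. KRT81, BMPR1A, EZR, MIF, CD74, ARRB2 and CAV2 were not analysed here. The alternatives were median centring, quantile normalization, a replicate block, filters at the 25th percentile and median of level, a trend with a robust prior, array weights, means of probe sets, all probe sets, and omitted arrays.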

Additional observations from a re-analysis of the deposited data

How the results depend on the processing

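Under 16 alternatives, 9 of them with all arrays, 0 of the 10 genes and 0 of all genes passed an adjusted p of 0.05 in limma, while genes at an unadjusted p under 0.05 numbered 76 with the filter at the median to 877 with array weights, against 325. The related lists, rerun with arrays left out only, also had 0 genes called. The directions of ID2, IL13RA2 and VCAM1 held in every setting run for them. With array weights ID3 turned to 0.13, LTBP1 went to -0.37, KYNU to -0.21, MAN1A1 to 0.07, ID1 to 0.01 and FSCN1 to 0.00. Without empty-vector array 1 and GHSROS array 3 together, ID1 turned to -0.06 and LTBP1 to 0.05. With arrays left out, log2 fold changes ran from -0.14 to 0.30 for ID1, 0.06 to 0.44 for ID2, -0.27 to 0.26 for ID3, 0.07 to 0.29 for VCAM1, 0.19 to 0.54 for IL13RA2, -0.60 to 0.40 for LTBP1, -0.09 to 0.14 for FSCN1, 0.00 to 0.36 for MAN1A1, -0.22 to 0.06 for KYNU and -0.14 to 0.01 for CXCR4. The filter at the 25th percentile removed VCAM1 and IL13RA2, and that at the median also ID2, ID3 and CXCR4.

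The titles number the replicates alike in both groups, but the numbers did not pair the arrays: deviations from the group means correlated at -0.714, 0.504 and -0.669 across genes for numbers 1, 2 and 3, against 0.831 for empty-vector array 1 with GHSROS array 3 and 0.738 for empty-vector array 3 with GHSROS array 1. With the replicate number as a block 0 genes passed, and 223 had an unadjusted p under 0.05. IL13RA2 stayed at 0.40 with an unadjusted p of 0.0222 and an adjusted p of 1.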
